A study of Mus musculus with 39 samples.

Results

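The 46 genes described here encode the glutamate receptors of excitatory synapses and the proteins that hold them in the postsynaptic density. They were chosen by gene symbol, with earlier results of these data known, and all 46 were found among the 50559 genes of both count tables. They comprise 21 receptor genes (4 AMPA, 6 NMDA, 5 kainate or delta and 6 metabotropic), 5 auxiliary subunits of receptors, 13 scaffolds, 5 postsynaptic adhesion molecules and 2 subunits of the kinase CaMKII. Grik1, a further kainate receptor gene, was left out because it lies in a block of chromosome 16 described as lost in the APP/Tau mice. That block was not examined here, and the members Grin2a and Dlg1 lie on the same chromosome. All 46 passed the filter on low counts in both tissues.

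At an excitatory synapse, glutamate opens AMPA receptors, which carry most of the fast current, and NMDA receptors, whose calcium entry activates CaMKII and sets off synaptic plasticity. Kainate and metabotropic receptors tune release and excitability on either side of the synapse. PSD-95 and its relatives (the Dlg genes) bind the receptors, the Dlgap and Shank proteins link that layer to Homer and the actin cytoskeleton, and neuroligins and Lrrtm proteins span the cleft. In the hippocampus and the basolateral amygdala this machinery underlies spatial and contextual memory and learned fear, and loss of synapses is a known feature of amyloid and tau pathology.

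Bulk RNA was read in 39 libraries, 19 of them from the basolateral amygdala, or BLA, and 20 from hippocampi, all of females at 9 months of age. The APP/Tau genotype joins 2 human transgenes, APP bearing the Swedish and Indiana mutations (J9 line) and P301S tau (PS19 line), and controls are wild type for both. All mice, controls included, also carry the CaMKIIα-Cre driver, active in glutamatergic neurons of the postnatal forebrain, and the RiboTag allele. The libraries are the input fraction, taken before any ribosome pull-down, so every cell type in the dissected tissue contributes. Naive mice were compared with trained mice, killed 1 h after a tone was paired with a foot shock. The BLA groups held 5 naive APP/Tau, 4 trained APP/Tau, 5 naive control and 5 trained control libraries, and the hippocampal groups held 5, 4, 5 and 6 in the same order. BLA tissue came from small punches, which can include neighbouring nuclei.

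Depth was lower in the BLA, with 50.3 to 74.3 M counts a library, than in the hippocampus, with 92.1 to 128.3 M. The genotype labels were checked on the transgenes: hippocampal App read 2251 to 2695 CPM (counts scaled to the size of the library, with TMM factors) in APP/Tau mice and 1685 to 2008 CPM in controls, and Prnp, whose promoter drives the PS19 transgene, read 1588 to 2231 CPM and 707 to 963.7 CPM. In the BLA Prnp read 1070 to 1683 CPM in APP/Tau mice and 743.5 to 1054 CPM in controls, while App gave a log2 fold change of -0.15 (edgeR adjusted p = 0.256). Mapt, the gene of tau, gave 0.22 in the hippocampus and 0.02 in the BLA (edgeR adjusted p = 0.000607 and 0.897). Of these genes Prnp alone was thus called in the BLA. The tissue labels were checked on regional markers: in the BLA, 9 of 10 dentate granule markers were lower than in the hippocampus (median log2 difference -2.45) and 13 of 14 markers of central amygdala and striatum were higher (median 2.71). Of 10 BLA neuron markers 4 were higher and 5 lower in the BLA, so that list did not set the tissues apart. Of the hippocampal controls, 2 libraries, naive 1 and trained 1, were rich in 18S ribosomal RNA, and the hippocampal genotype result is given with and without them.

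In the control mice the members spanned a wide range of expression. Per kilobase of exon, the hippocampal level was highest for Camk2a, the alpha subunit of CaMKII, at 506 CPM per kb, followed by Gria1 (the GluA1 AMPA subunit) at 191.8 CPM per kb and Camk2b at 139.9 CPM per kb. Cacng8 (the AMPA auxiliary subunit TARP gamma-8), the scaffold gene Dlgap3, Gria2 and Dlg4 (PSD-95) followed at 76.5, 66.9, 61.8 and 60.1 CPM per kb. The lowest levels were those of Grm8, Grin2d and Grm4, at 1.03, 2.54 and 2.88 CPM per kb. In the BLA of controls the first 4 places were Camk2a at 358.1, Gria1 at 125.5, Camk2b at 79.2 and Dlgap3 at 77.7 CPM per kb, and the last was Grik4 at 2.78 CPM per kb.

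In the hippocampus of APP/Tau mice, averaged over naive and trained mice, 12 of the 46 genes fell and none rose (edgeR quasi-likelihood test, adjusted p under 0.05). Among all 25791 genes tested, 11.1% were called in either direction, 7.27% higher and 3.80% lower. The 12 were spread over the synapse: the receptor genes Gria3, Grin2b, Grin3a and Grm5, the auxiliary subunit Cacng3, the scaffolds Dlg2, Dlg4, Shank1, Shank2, Homer2 and Dlgap1, and the adhesion molecule Nlgn3. The decreases were small, between 0.17 and 0.36 on the log2 scale. Before any threshold, 42 of 46 log2 fold changes were below 0, 31 had an unadjusted p under 0.05, and their median was -0.20. Over all genes tested, 50.3% were below 0, 28.5% had an unadjusted p under 0.05 and the median was -0.0013.

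Among the AMPA receptor subunits, which form the main fast-conducting channels, 1 of 4 was called. Gria3, which encodes the X-linked subunit GluA3, read 176.1, 219.6 and 250.6 CPM (lowest, median and highest) in 9 APP/Tau libraries and 229.6, 244.4 and 257.3 CPM in 11 control libraries. Of the APP/Tau libraries 7 lay below the lowest control, and the groups overlapped. Its log2 fold change was -0.17 ± 0.05 (SE, adjusted p = 0.0392, edgeR). Gria1 and Gria2, which encode GluA1 and the calcium-blocking subunit GluA2, gave -0.22 ± 0.09 and -0.23 ± 0.08 and missed the threshold (adjusted p = 0.116 and 0.0605, edgeR), and Gria4 gave -0.01 ± 0.04.

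Of the 6 NMDA receptor subunits 2 fell. Grin2b encodes GluN2B, the subunit of slowly decaying NMDA currents, and read 430.2, 586.5 and 664.8 CPM in APP/Tau mice and 600.8, 667.5 and 1113 CPM in controls. All 9 APP/Tau libraries lay below the control median and 6 below the lowest control, while 1 control library (trained 1) lay far above the rest. The log2 fold change was -0.36 ± 0.10 (adjusted p = 0.0306, edgeR). Grin3a, whose product lowers the calcium permeability of NMDA receptors, read 33.3, 41.6 and 47.6 CPM in APP/Tau mice and 40.2, 46.6 and 58.0 CPM in controls, a change of -0.21 ± 0.07 (adjusted p = 0.0486, edgeR). Grin2a (GluN2A) gave -0.32 ± 0.11 and the obligatory subunit Grin1 -0.19 ± 0.06, both just short of the threshold (adjusted p = 0.0631 and 0.0533, edgeR), and Grin2c and Grin2d gave -0.05 and -0.04.

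None of the 5 kainate and delta receptor genes was called, 3 of them with an unadjusted p under 0.05 (edgeR), and their median log2 fold change was -0.13. Grik2, a main pore-forming kainate subunit, had the largest value at -0.23 ± 0.08 (adjusted p = 0.0593, edgeR). Of the 6 metabotropic receptors 1 fell. Grm5 encodes mGlu5, a postsynaptic receptor coupled to phospholipase C and tethered by Homer, and read 209.5, 294.1 and 322.4 CPM in APP/Tau mice and 319.6, 335.2 and 355.2 CPM in controls. This was the nearest any gene came to separating the genotypes, since 8 of 9 APP/Tau libraries lay below the lowest control and 10 of 11 controls above the highest APP/Tau library. Its log2 fold change was -0.29 ± 0.07 (adjusted p = 0.018, edgeR). Grm2, the presynaptic autoreceptor mGlu2, showed a larger but less regular difference of -0.36 ± 0.13 (adjusted p = 0.0751, edgeR).

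Cacng3, which encodes the AMPA auxiliary subunit TARP gamma-3, was the called member of the 5 auxiliary subunits. It read 32.0, 40.8 and 46.0 CPM in APP/Tau mice and 43.8, 45.8 and 51.6 CPM in controls, a change of -0.25 ± 0.06 (adjusted p = 0.0182, edgeR), and 7 of 9 APP/Tau libraries lay below the lowest control. Cacng8 gave the largest value of the class, -0.27 ± 0.11, without passing (adjusted p = 0.0929, edgeR). Neto2, a kainate receptor auxiliary subunit, gave 0.04 ± 0.07.

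The scaffolds held the most called genes, 6 of 13, beside 4 of 21 receptor genes. Shank1, a master scaffold of the deep postsynaptic density, read 328.7, 417.4 and 460.4 CPM in APP/Tau mice and 406.1, 502.6 and 554.3 CPM in controls, a change of -0.30 ± 0.07 (adjusted p = 0.0123, edgeR). All 9 APP/Tau libraries lay below the control median and 4 below the lowest control. Shank2 read 68.0, 113.2 and 128.5 CPM in APP/Tau mice and 116.5, 128.5 and 146.1 CPM in controls (-0.29 ± 0.09, adjusted p = 0.0368, edgeR). Shank3 gave a similar value with a wider error, -0.28 ± 0.11, and was not called (adjusted p = 0.1, edgeR).

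Dlg4, which encodes PSD-95, the most abundant scaffold of its family here, read 495.7, 688.3 and 792.1 CPM in APP/Tau mice and 740.2, 800.2 and 864.4 CPM in controls, a change of -0.23 ± 0.07 (adjusted p = 0.0413, edgeR). Dlg2, which encodes PSD-93, read 234.8, 314.9 and 336.9 CPM in APP/Tau mice and 326.3, 339.2 and 378.7 CPM in controls (-0.19 ± 0.06, adjusted p = 0.0413, edgeR). In both genes every APP/Tau library lay below the control median. Dlgap1, a link between PSD-95 and Shank, read 422.2, 567.4 and 630.1 CPM in APP/Tau mice and 532.2, 637 and 687.3 CPM in controls (-0.21 ± 0.07, adjusted p = 0.0495, edgeR). Homer2, an adaptor between Shank and the group I metabotropic receptors, read 70.4, 98.1 and 120.1 CPM in APP/Tau mice and 104, 113.9 and 132.8 CPM in controls (-0.29 ± 0.09, adjusted p = 0.0445, edgeR). The 2 scaffolds with values above 0 were Dlg1 (SAP97) and Homer3, at 0.02 ± 0.06 and 0.05 ± 0.10.

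Nlgn3, the X-linked neuroligin 3, had the smallest p of the 46 genes. It read 56.5, 63.5 and 71.7 CPM in APP/Tau mice and 67.5, 76.7 and 90.5 CPM in controls, a change of -0.25 ± 0.06 (adjusted p = 0.0113, edgeR). All 9 APP/Tau libraries lay below the control median and 5 below the lowest control. Of the other adhesion genes, Lrrtm1 gave -0.26 ± 0.09 (adjusted p = 0.0631, edgeR), while Nlgn1 at -0.11, Nlgn2 (the neuroligin of inhibitory synapses) at -0.11 and Lrrtm2 at -0.0039 were not called. Camk2a had the largest value of all members, -0.37 ± 0.14, with so wide a spread between libraries that it was not called (adjusted p = 0.093, edgeR).

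**Figure D1:**
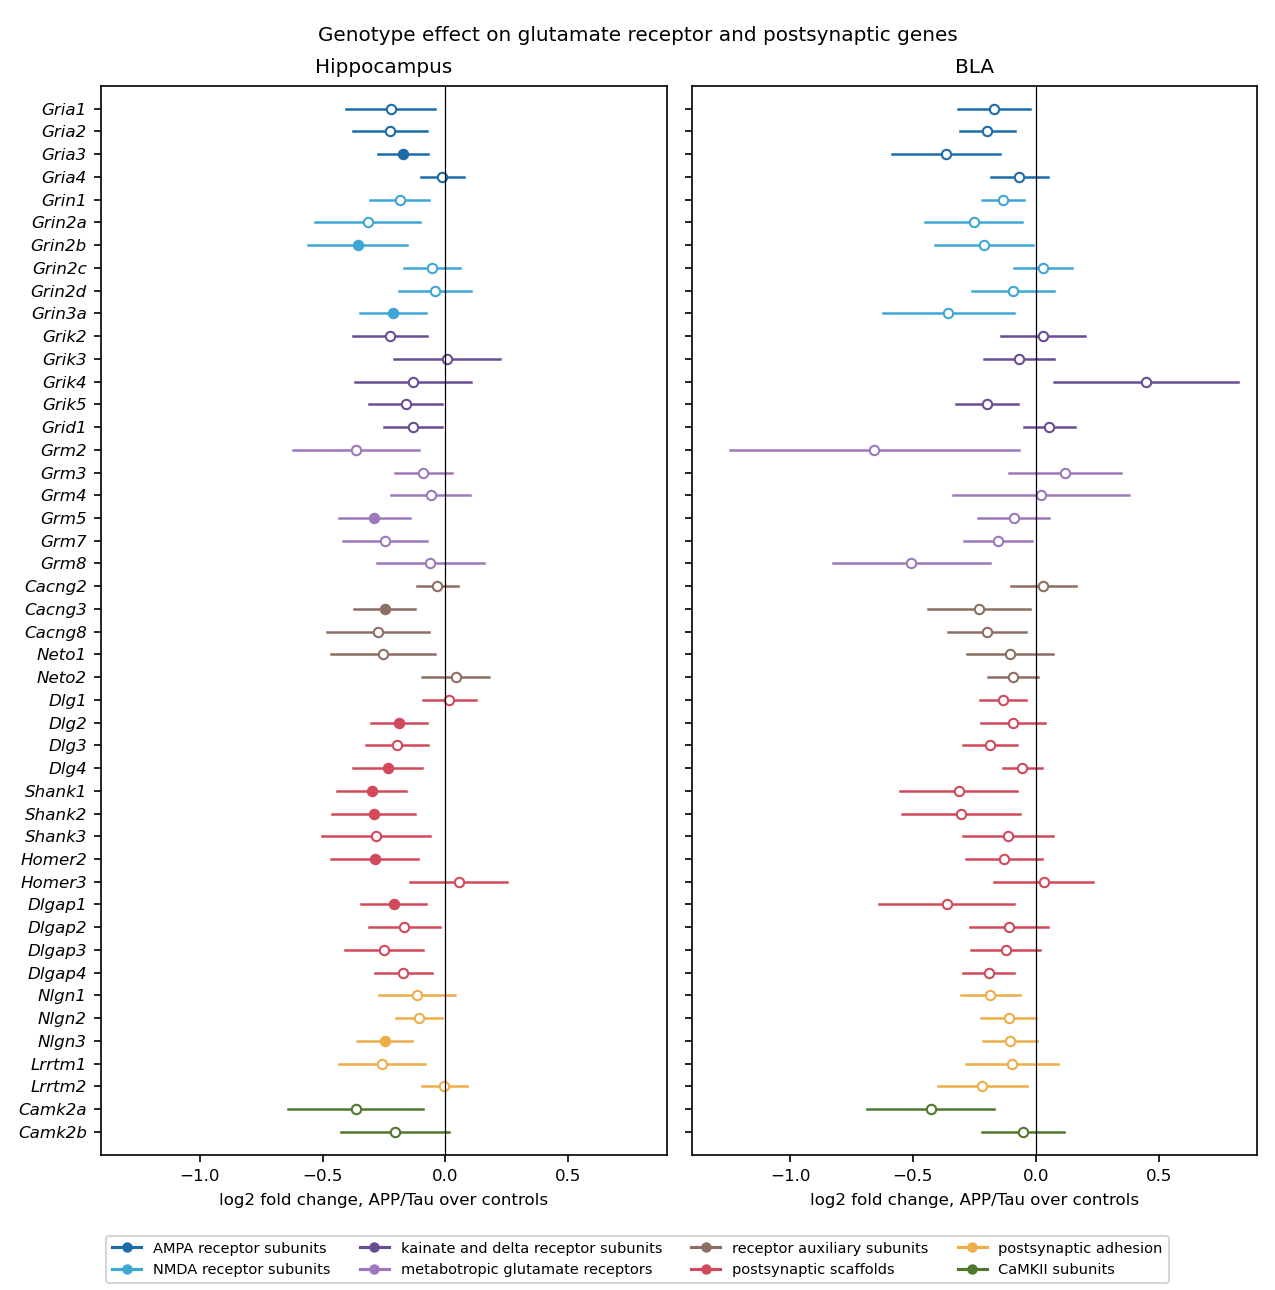
Log2 fold change of APP/Tau over control mice, averaged over training, for each of the 46 genes in the hippocampus (left) and the BLA (right). Points are estimates, bars 95% intervals, colours gene classes, and filled points passed the adjusted p threshold. In the hippocampus 42 of 46 points lie left of 0 and 12 are filled, and in the BLA 38 lie left of 0 and none is filled.

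**Figure D2:**
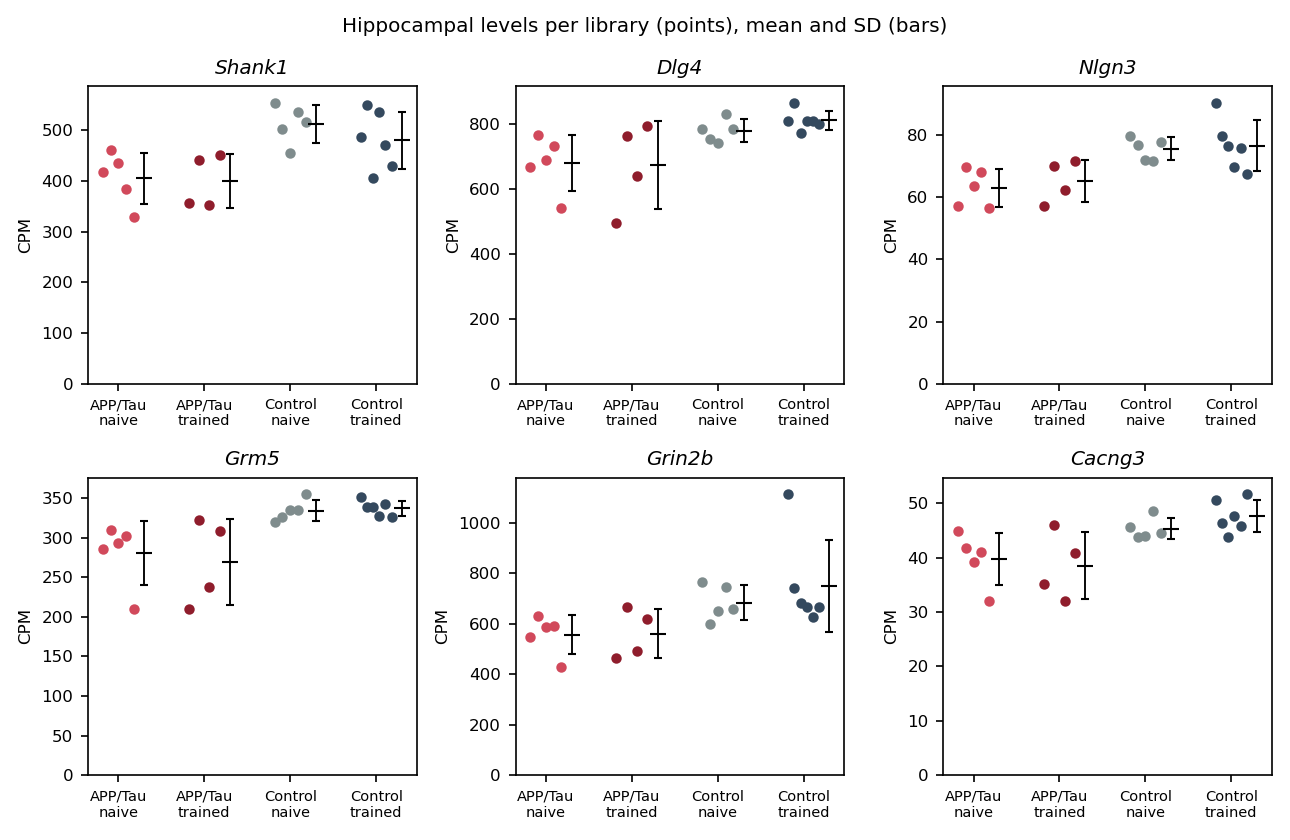
Hippocampal level in CPM of 6 of the called genes in every library, by genotype and training. Points are libraries and the bars at the right of each group are the mean and SD. Grm5 spans 209.5 to 322.4 CPM in APP/Tau libraries and 319.6 to 355.2 CPM in controls.

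Receptors and scaffolds both stood lower in the hippocampus. The median log2 fold change was -0.17 over the 21 receptor genes and -0.21 over the 13 scaffolds. Within a library, the scaffold median minus the receptor median (each relative to the mean of the controls) ranged from -0.05 to 0.12 log2 units over the 9 APP/Tau libraries (median -0.01) and from -0.05 to 0.09 over the 11 control libraries. Scaffolds were the lower class in 5 of 9 APP/Tau libraries and in 6 of 11 controls. The larger share of called scaffolds was not tested against the receptor genes, and ranges over single libraries cannot settle whether the classes differ.

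The APP/Tau hippocampi did not shift evenly. The median over the 46 genes, relative to controls, was -0.14, -0.05, -0.13, -0.09 and -0.54 in naive APP/Tau libraries 1 to 5 and -0.53, -0.03, -0.31 and -0.08 in trained APP/Tau libraries 1 to 4. In the controls it stayed between -0.03 and 0.04. Naive 5, trained 1 and trained 3 were thus the lowest. The same 3 libraries had the highest microglial marker medians of the APP/Tau group, 2.20, 1.91 and 1.69 log2 units above controls, and the lowest pan-neuronal marker medians, -0.37, -0.37 and -0.18. The part of the microglial level in the result was not tested.

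**Figure D3:**
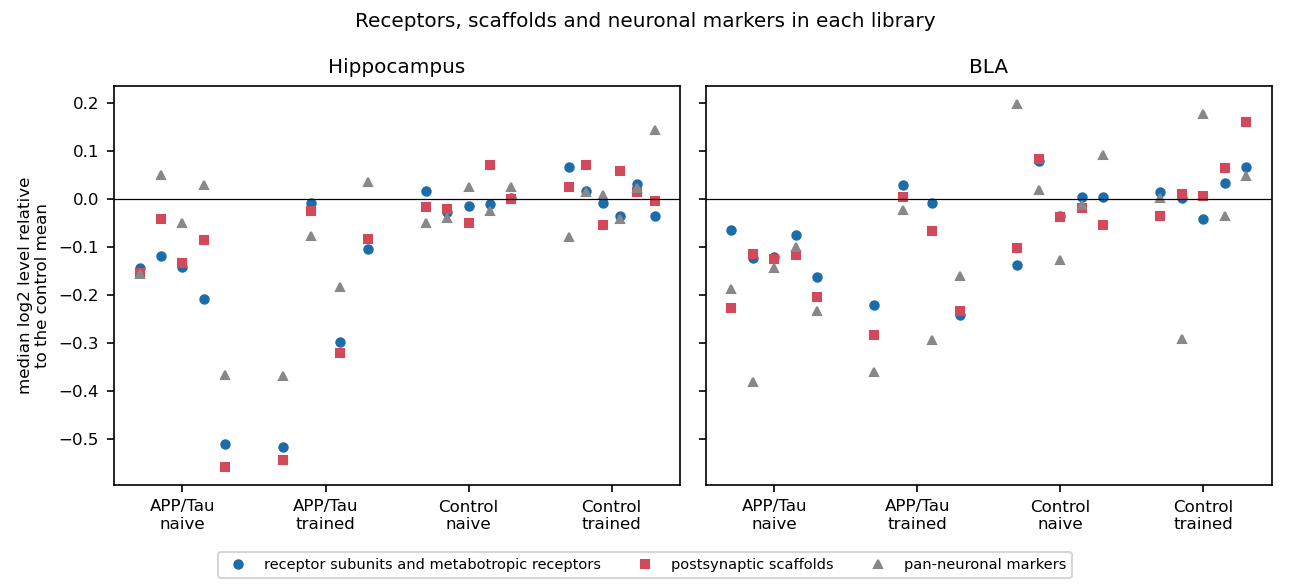
Median log2 level relative to the mean of the controls in every library, for the receptor genes (circles), the scaffolds (squares) and the pan-neuronal markers (triangles), in the hippocampus (left) and the BLA (right). In the hippocampus 3 APP/Tau libraries lie near or below -0.30 for receptors and scaffolds, and in both classes every control library lies closer to 0 than these do.

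Other cell types and neuronal markers moved with genotype in the same libraries. In the hippocampus, 10 of 11 microglial markers, 7 of 11 astrocytic markers and 6 of 9 oligodendrocyte markers rose in APP/Tau mice, with median log2 fold changes of 1.18, 0.29 and 0.45 (edgeR). Summed microglial markers ran from 462.5 to 1705 CPM in APP/Tau mice and from 365.8 to 443.5 CPM in controls, and no marker of these lists was at 0 in all libraries. Of 12 pan-neuronal markers 1 fell (Map2, -0.23 ± 0.07, adjusted p = 0.0383, edgeR), their median was -0.12, and their sum ran from 5919 to 8135 CPM in APP/Tau mice and from 7602 to 8675 CPM in controls. Of 10 dentate granule markers 4 fell, with a median of -0.46, 2 of 8 CA1 markers fell, and 0 of 9 CA3 markers were called (1 with an unadjusted p under 0.05). In bulk tissue, fewer neurons and less of a transcript per neuron cannot be told apart.

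When the pan-neuronal marker level entered the fit as a covariate, 0 of 46 genes were called (edgeR), 10 had an unadjusted p under 0.05, 42 were still below 0 and the median was -0.09. Over all genes 330 were called in that fit, beside 2854 without the covariate, and their unadjusted share was not counted. The member median lay below the pan-neuronal median in 7 of 9 APP/Tau libraries and in 5 of 11 controls, with a difference between -0.17 and 0.05 log2 units in APP/Tau mice and between -0.17 and 0.12 in controls. Without the 2 control libraries rich in 18S ribosomal RNA, 5 genes were called (Grin2b, Grm5, Cacng3, Shank1 and Nlgn3) and the median was -0.19. Over all genes that fit called 1803.

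The number of called genes rested on single libraries. Nlgn3, Shank1 and Grm5 were called in each of the 20 fits that left out 1 hippocampal library, Cacng3 in 18, Grin2b in 16 and the other 7 genes in 5 to 11. The count of 12 became 3 without APP/Tau trained 1 or trained 3, 7 without APP/Tau naive 5, 20 without APP/Tau naive 2, 21 without APP/Tau trained 4 and 26 without APP/Tau trained 2. It was 5 to 7 without any of control naive 1 to 5 or control trained 1, 2, 4 or 5. The median stayed between -0.23 and -0.15 throughout. The calls over all genes moved as well, from 2854 to 1171 without APP/Tau trained 1 and to 4465 without APP/Tau trained 2. These were the lowest and the highest of the 20 fits.

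Related synaptic genes outside the 46 were compared as a frame. Of 36 other postsynaptic and receptor genes 8 fell in the hippocampus, with a median log2 fold change of -0.19. They included Adgrb1, a synaptic adhesion receptor (-0.28 ± 0.07), Abhd6, an endocannabinoid hydrolase (-0.18 ± 0.05), and Camk2n1, an inhibitor of CaMKII (-0.27 ± 0.07), with edgeR adjusted p = 0.0158, 0.022 and 0.0222. Of 15 genes for GABA-A receptors and their scaffold 1 fell, the extrasynaptic delta subunit Gabrd (-0.22 ± 0.06, adjusted p = 0.0184, edgeR), with a median of -0.15. Of 16 genes for glutamate release and uptake 1 was called, the astrocytic transporter Slc1a3, which rose by 0.24 ± 0.07 (adjusted p = 0.0466, edgeR).

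Within naive hippocampi no member was called (edgeR), beside 0.202% of all genes (0.109% higher and 0.0931% lower), and 9 (19.6%) had an unadjusted p under 0.05, near the 15.2% of all genes. The smallest p belonged to Shank1 at -0.34 ± 0.10, Nlgn3 at -0.26 ± 0.08 and Shank2 at -0.36 ± 0.12 (adjusted p = 0.12, 0.138 and 0.169, edgeR). Within trained hippocampi no member was called either, beside 2.80% of all genes (2.65% higher and 0.143% lower), and 23 had an unadjusted p under 0.05 (20.3% of all genes did), led by Cacng3 at -0.31 ± 0.09, Dlgap1 at -0.33 ± 0.10 and Grm5 at -0.33 ± 0.11 (adjusted p = 0.0723, 0.0748 and 0.101, edgeR). DESeq2 called 2 members in naive and 3 in trained mice, beside 744 and 1590 of all genes. Medians were -0.15 in naive and -0.22 in trained mice. Of the 46 genes 38 were below 0 in both subsets, 82.6%, beside 34.4% of all genes tested.

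In the BLA the same genes lay lower in APP/Tau mice on balance, but none passed the threshold averaged over training (edgeR), beside 1.18% of all 23168 genes (0.997% higher and 0.181% lower). Of the 46, 38 were below 0 and 22 had an unadjusted p under 0.05, and the median log2 fold change was -0.13. Over all genes, 48.4% were below 0, 19% had an unadjusted p under 0.05 and the median was 0.0068. DESeq2 called 7, all lower (Gria2, Gria3, Grin1, Grm8, Dlg3, Dlgap4 and Camk2a), and limma-voom 0. Over all genes DESeq2 called 1191 and limma-voom 64. The smallest p belonged to Dlgap4, a scaffold of the Dlgap family, at -0.19 ± 0.05, Gria2 at -0.20 ± 0.06 and Dlg3 (SAP102) at -0.19 ± 0.06 (adjusted p = 0.0712, 0.0777 and 0.0937, edgeR).

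Dlgap4 read 220.4, 235 and 277.6 CPM (lowest, median and highest) in 9 APP/Tau libraries of the BLA and 250.8, 272 and 304.7 CPM in 10 controls, so the groups overlapped. Gria2 read 591.3, 631.5 and 770.7 CPM in APP/Tau mice and 666.3, 739.3 and 840.5 CPM in controls. In both genes the highest APP/Tau library exceeded the control median. By class, the values farthest from 0 were Gria3 at -0.37 ± 0.11, Grin3a at -0.36 ± 0.14, Grik4 at 0.45 ± 0.19, Grm2 at -0.66 ± 0.30, Cacng3 at -0.23 ± 0.11, Dlgap1 at -0.36 ± 0.14, Lrrtm2 at -0.22 ± 0.09 and Camk2a at -0.43 ± 0.13, all uncalled. Grm2 varied most, from 9.93 to 69.4 CPM in APP/Tau mice and from 19.04 to 81.8 CPM in controls.

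The median was -0.13 over both the receptor genes and the scaffolds in the BLA. Within a library, the scaffold median minus the receptor median ranged from -0.16 to 0.01 over the 9 APP/Tau libraries (median -0.04, below 0 in 7) and from -0.06 to 0.09 over the 10 controls (median 0.0062, below 0 in 4), a difference that was not tested. Kainate and delta receptor genes were the class with a median above 0, at 0.03, and 3 of its 5 genes lay above 0. The library medians over all 46 genes ran from -0.28 to 0.01 in APP/Tau mice and from -0.12 to 0.16 in controls. APP/Tau trained 2 was the highest APP/Tau library, and 16 members were called without it, while 7 were called without control trained 2 and none without any other library. Over all genes, 2176 were called without APP/Tau trained 2, beside 273 with every library. The 19 fits that left out 1 library called between 45 and 2176 of all genes.

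The BLA punches also differed in what they held. Summed markers of central amygdala and striatum ran from 1055 to 5394 CPM in APP/Tau mice and from 663.8 to 4894 CPM in controls, with 0 of 14 markers called (edgeR, none with an unadjusted p under 0.05) and a median log2 fold change of 0.63. BLA neuron markers summed to 596.8 to 1637 CPM in APP/Tau mice and 623.5 to 2191 CPM in controls, with 0 of 10 called (6 with an unadjusted p under 0.05) and a median of -0.46. Of 12 pan-neuronal markers 2 fell, the neurofilament genes Nefm and Nefl, at -0.52 ± 0.10 and -0.50 ± 0.12 (adjusted p = 0.0159 and 0.0467, edgeR), and the median was -0.21. With the striatal level as covariate 0 members were called (33 of all genes were), 15 had an unadjusted p under 0.05 and the median was -0.13. With the pan-neuronal level as covariate 0 were called (12 of all genes were), 6 had an unadjusted p under 0.05 and the median was -0.08. The unadjusted shares of all genes in these covariate fits were not counted. The member median lay below the pan-neuronal median in 1 of 9 APP/Tau libraries and in 4 of 10 controls.

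Glial markers moved with genotype in the BLA as well. Of 11 microglial markers 8 rose, with a median log2 fold change of 0.74, and their sum ran from 409.2 to 1052 CPM in APP/Tau mice and from 353.2 to 454.3 CPM in controls. Of 9 oligodendrocyte markers 2 rose, all 9 with an unadjusted p under 0.05 and a median of 0.60, and of 11 astrocytic markers 2 rose, with a median of 0.18 (edgeR). Their part in the BLA values of the 46 genes was not tested.

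Within naive BLA mice no member was called, beside 0.0388% of all genes (0.0129% higher and 0.0259% lower), and 12 had an unadjusted p under 0.05 (13.2% of all genes did, edgeR). Grid1, the delta receptor GluD1, had the smallest p at 0.23 ± 0.07, followed by Gria2 and Dlg3 at -0.21 ± 0.08 each (adjusted p = 0.262, 0.296 and 0.296, edgeR). Within trained mice no member was called, beside 0.0432% of all genes (0.0173% higher and 0.0259% lower), and 12 had an unadjusted p under 0.05 (10.3% of all genes did), led by Grin1 at -0.20 ± 0.06, Nlgn1 at -0.27 ± 0.09 and Dlgap4 at -0.22 ± 0.08 (adjusted p = 0.274, 0.289 and 0.321, edgeR). Without APP/Tau trained 2, 8 members were called in trained mice, beside 677 of all genes (10 with every library). In both subsets 36 of 46 genes lay below 0, 78.3%, beside 30.2% of all genes tested.

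Whether the genotype effect differed between the tissues was tested directly. No member was called (edgeR), beside 0.0262% of 26725 genes (0.00748% higher and 0.0187% lower), and 7 had an unadjusted p under 0.05 (8.34% of all genes did). The smallest p belonged to Grik4 at 0.57 ± 0.23, Grm8 at -0.46 ± 0.20 and Grid1 at 0.17 ± 0.08, as BLA minus hippocampal log2 fold change (adjusted p = 0.493, 0.548 and 0.562, edgeR). The 95% intervals of 43 of 46 genes lay within 0.5 log2 units of 0. The data thus hold 12 called genes in the hippocampus and none in the BLA, with no member called for the difference between the tissues.

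At 1 h after fear conditioning no member passed the threshold against naive mice in either tissue or genotype, and none passed it for the interaction of genotype and training. Over these 6 comparisons 0% of all genes were called (edgeR), and DESeq2 and limma-voom called no member. For training, DESeq2 called 14 of all genes in APP/Tau BLA, 2 in control BLA, 2 in APP/Tau hippocampi and 0 in control hippocampi. For the interaction it called 3 in the hippocampus and 0 in the BLA, and limma-voom called 0 of all genes throughout. In APP/Tau hippocampi 0 members had an unadjusted p under 0.05 (4.59% of all genes did), and the smallest p belonged to Neto1 at -0.30 ± 0.16, Homer3 at -0.23 ± 0.15 and Grm8 at 0.23 ± 0.16 (adjusted p = 0.986 each, edgeR). In control hippocampi 1 had an unadjusted p under 0.05 (2.42% of all genes did), Grin2d at -0.22 ± 0.10, followed by Grm4 at -0.22 ± 0.11 and Nlgn2 at -0.07 ± 0.06. The medians were -0.04 in APP/Tau and 0.0049 in control hippocampi. In controls, where all 46 intervals lay within 0.5 log2 units of 0, the bounds ran from -0.47 (Camk2a) to 0.40 (Grin2b), and in APP/Tau mice 39 of 46 lay within that limit.

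In the BLA of APP/Tau mice 3 members (6.52%) had an unadjusted p under 0.05 after training, near the 5.85% of all genes. These were Grid1 at -0.23 ± 0.08, Lrrtm1 at 0.37 ± 0.14 and Homer2 at 0.24 ± 0.11 (adjusted p = 0.782, 0.841 and 0.841, edgeR). In control BLA 1 did, beside 2.09% of all genes, Neto2 at 0.17 ± 0.07, followed by Grm5 at 0.19 ± 0.10 and Grid1 at 0.14 ± 0.07. The medians were -0.01 in APP/Tau and 0.05 in control mice. For the interaction, 1 BLA member had an unadjusted p under 0.05 (3.86% of all genes did), Grid1 at -0.36 ± 0.11 (adjusted p = 0.949, edgeR), and in the hippocampus 0 did (3.9% of all genes), the smallest p being that of Dlgap1 at -0.23 ± 0.13 (adjusted p = 0.984, edgeR). The intervals of the interaction were wide, and 25 of 46 in the BLA and 31 of 46 in the hippocampus lay within 0.5 log2 units of 0.

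Region set these genes apart far more than genotype did. Over all mice, 21 of 46 were higher and 18 lower in the BLA than in the hippocampus (edgeR), beside 64.5% of all genes called, 30.0% higher and 34.5% lower. The levels did not overlap between the tissues for 7 of the 46 genes, 15.2%, and for 8.46% of all genes. Both tissues can come from the same mouse, and RNA input differed (10 ng for the BLA and 50 ng for the hippocampus), so tissue and library input cannot be told apart. Markers of central amygdala and striatum summed to 1055 to 5394 CPM in APP/Tau punches and 663.8 to 4894 CPM in control punches. The values called BLA below are those of such punches, and the part of neighbouring nuclei in the region differences was not tested.

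The largest differences towards the BLA were in 3 receptor genes. Grm8, the presynaptic group III receptor mGlu8, read 17.2, 35.0 and 50.5 CPM (lowest, median and highest) in 19 BLA libraries and 6.95, 9.80 and 13.9 CPM in 20 hippocampal libraries, a log2 difference of 1.79 ± 0.10 (adjusted p = 2.89e-17, edgeR). Grik3, a kainate subunit, read 123.2, 168.4 and 197.3 CPM in the BLA and 55.2, 78.0 and 113 CPM in the hippocampus, a difference of 1.15 ± 0.07 (adjusted p = 9e-17, edgeR). In both genes every BLA library lay above every hippocampal library. Grm4, the group III receptor mGlu4, read 21.0, 36.8 and 62.6 CPM in the BLA and 13.5, 17.5 and 21.1 CPM in the hippocampus, a difference of 1.14 ± 0.10 (adjusted p = 7.26e-12, edgeR), and the ranges touched.

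Homer3, a Homer adaptor, Grin2a and Grik4, a high-affinity kainate subunit known for its presence in CA3, led in the other direction. Homer3 read 13.2, 15.3 and 25.4 CPM in the BLA and 37.8, 58.3 and 76.7 CPM in the hippocampus, a difference of -1.86 ± 0.08 (adjusted p = 9.09e-22, edgeR). Its exons overlap those of Ddx49 on the other strand, and the strand setting of the counting is not given in the sources used here, so reads of both genes cannot be told apart. Grin2a read 94.5, 134.9 and 182.6 CPM in the BLA and 209.7, 398.8 and 493.6 CPM in the hippocampus (-1.53 ± 0.08, adjusted p = 7.98e-19, edgeR). Grik4 read 10.3, 19.6 and 28.7 CPM in the BLA and 29.7, 53.1 and 62.5 CPM in the hippocampus (-1.35 ± 0.12, adjusted p = 2.38e-12, edgeR). None of these 3 genes overlapped between the tissues.

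Within each family the subunits split. Of the AMPA genes, Gria4 and Gria3 were higher in the BLA (0.50 ± 0.04 and 0.20 ± 0.06) and Gria1 and Gria2 lower (-0.57 ± 0.06 and -0.34 ± 0.05). Of the NMDA genes, Grin3a, Grin2d and Grin1 were higher (0.91 ± 0.08, 0.58 ± 0.06 and 0.12 ± 0.04) and Grin2a and Grin2b lower, the second by -0.75 ± 0.07, while Grin2c was not called. The TARP genes split as well, Cacng3 being higher (0.89 ± 0.06) and Cacng8 and Cacng2 lower (-0.77 ± 0.07 and -0.29 ± 0.04). Of the kainate auxiliary genes, Neto2 was higher (0.39 ± 0.05) and Neto1 was not called.

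Receptor genes were more often higher in the BLA, 12 of 21 against 7 lower, with a median of 0.20. Scaffolds were divided, 5 higher and 5 lower of 13, with a median of -0.04. Dlg1 was the highest scaffold in the BLA (0.42 ± 0.04), followed by Dlgap3 (0.30 ± 0.06), and Homer2 was the lowest after Homer3 (-0.89 ± 0.06). The core scaffolds Dlg4, Dlg2, Dlg3 and Shank1 differed by 0.10 ± 0.04, 0.09 ± 0.04, -0.04 ± 0.04 and -0.08 ± 0.07, and of these Dlg4 alone passed (adjusted p = 0.0273, edgeR). Of the adhesion genes, Nlgn2 and Nlgn3 were higher (0.55 ± 0.04 and 0.25 ± 0.04) and Lrrtm1 and Nlgn1 lower (-0.92 ± 0.07 and -0.32 ± 0.05). Both CaMKII genes were lower in the BLA, Camk2b by -0.73 ± 0.07 and Camk2a by -0.52 ± 0.10.

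**Figure D4:**
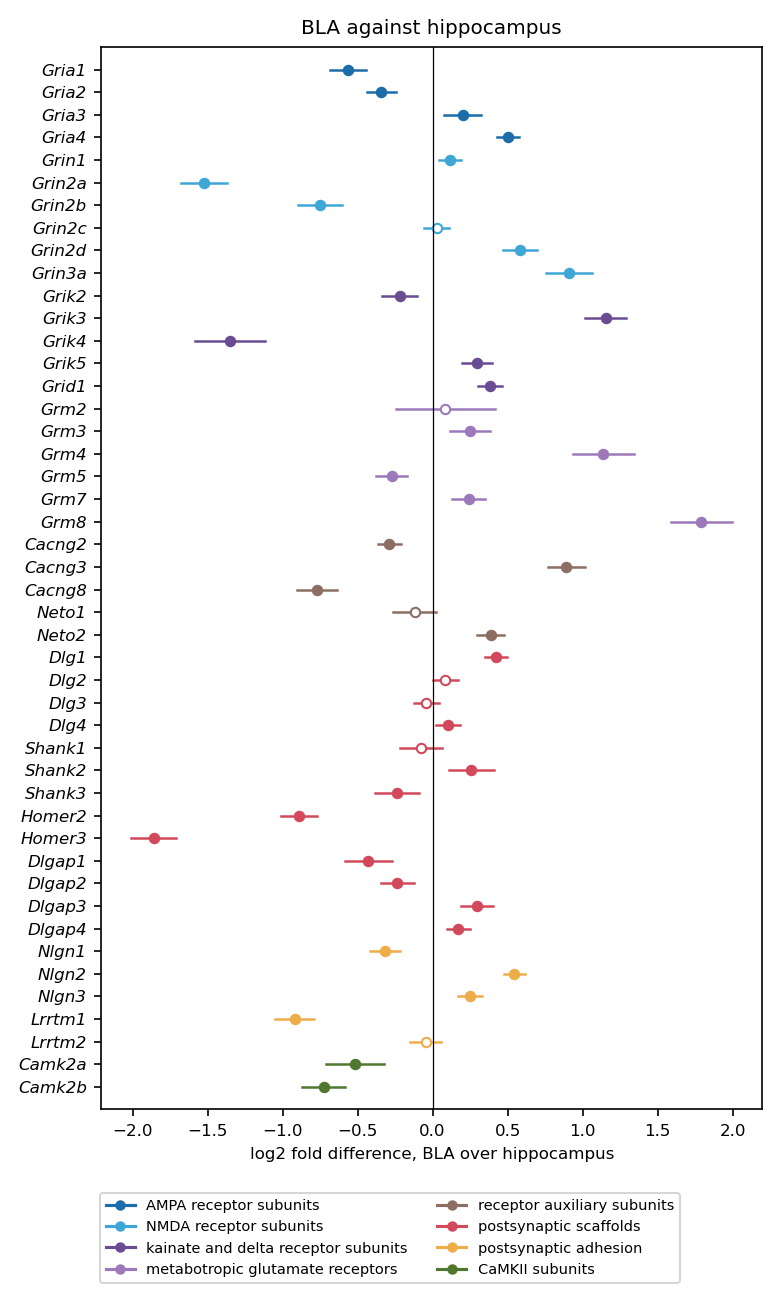
Log2 difference of the BLA over the hippocampus for each of the 46 genes, averaged over genotype and training. Points are estimates, bars 95% intervals, colours gene classes, and filled points passed the adjusted p threshold. Values run from -1.86 for Homer3 to 1.79 for Grm8, with subunits of one family on both sides of 0.

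Gene structure was compared between the 12 genes that fell in the hippocampus and the other 34, as a description. The 12 had a median gene span of 230.9 kb and a median exon length of 11.5 kb, and the other 34 a span of 105.4 kb and an exon length of 6.09 kb. Median hippocampal levels in controls were 22.9 and 17.9 CPM per kb. Longer exons collect more counts at a given level, and the part of this in the calls was not tested. Exons of 7 of the 12 and 19 of the 34 overlap those of another annotated gene, among them Shank1, Grin2b, Homer2 and Dlgap1 with antisense genes, which adds some uncertainty to their counts.

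Promoter sequences were available from RefSeq (GRCm38.p6) for 31 of the 46 genes, 46 promoters in all, and the 250 bases upstream of each start were searched on both strands. The cyclic AMP response element TGACGTCA, bound by CREB, occurred in 0 of 46 and in 1.55% of 32851 promoters of all genes. The NRF1 motif occurred in 0 and in 0.782%. The SP1 motif GGGGCGGGG occurred in 10.9% of the member promoters and in 10.4% of all, and the EGR1 motif GCGGGGGCG in 2.17% of the member promoters and in 2.57% of all. A match is a description of letters only.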

How the data were processed

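For 19 BLA and 20 hippocampal libraries, the authors' tables hold raw, whole-number gene counts. Reads had been trimmed with Trimmomatic 0.39 and the genome build was mm39, per the submitters' processing notes. How reads were aligned and counted, with which annotation and strand setting, is not given in the sources used here. The 46 genes, the gene lists and the tests were chosen with earlier results of these data known.

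With edgeR 4.0.16 (R 4.3.3), 4 group means were fitted per tissue and 8 over both tissues. The filter of filterByExpr, at minimum counts of 10 per library and 15 in total, left 25791 genes in the hippocampus, 23168 in the BLA and 26725 in both. TMM factors, trended dispersions and the 2-sided quasi-likelihood F test were used, with Benjamini-Hochberg adjustment over all genes of each of 14 comparisons and a threshold of 0.05. The fold changes are log2 values computed here from the deposited counts. Dividing the absolute log2 fold change by the root of F gave its standard error, and 1.96 of these on each side the 95% interval. Levels were set as TMM-scaled CPM, and CPM per kb uses exon lengths of a GENCODE annotation of build GRCm38. Total counts ran from 92.1 to 128.3 M in the hippocampus and from 50.3 to 74.3 M in the BLA. The labels number libraries as separate samples, so p-values measure the spread between these samples. No 2 libraries were duplicates.

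Members past the threshold were named where there were at most 14, otherwise up to 2 per class and direction, or the 3 with the smallest p where fewer than 3 passed. The member with the largest change of each class is given for the averaged genotype effects and the region difference. The tests were run on simulated counts first. Alternatives were DESeq2 1.42.0, voom of limma 3.58.1, RLE factors, other count filters, a replicate block, only the groups compared, marker covariates and leaving out each library. Leaving out the 2 hippocampal controls with 18S ribosomal RNA above 5 times the median was added after seeing the data.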

Additional observations from a re-analysis of the deposited data

Results flagged for a closer look

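In each group of 4 to 6 libraries, the highest and the lowest value of every member were compared with the other values by Dixon's criterion at the 95% level. Of 368 such groups 25 held a value that stood apart, and chance flags about 1 group in 20. In hippocampal control trained library 1, this was the case for Grin2b at 1113 CPM (above the next library, 742.7 CPM), Dlg2 at 378.7 CPM (above the next library, 348.2 CPM) and Dlgap1 at 687.3 CPM (above the next library, 647.9 CPM). In hippocampal control naive library 1, this was the case for Grin2c at 59.86 CPM (above the next library, 51.64 CPM), Grik4 at 46.16 CPM (below the next library, 53.62 CPM) and Neto2 at 74.2 CPM (above the next library, 61.46 CPM). In hippocampal APP/Tau trained library 4, this was the case for Grm4 at 13.56 CPM (below the next library, 17.54 CPM). In hippocampal APP/Tau naive library 5, this was the case for Grm5 at 209.5 CPM (below the next library, 286.4 CPM), Grm7 at 39.67 CPM (below the next library, 63.78 CPM) and Dlg2 at 234.8 CPM (below the next library, 312.3 CPM). In hippocampal control naive library 4, this was the case for Lrrtm1 at 117.4 CPM (above the next library, 104.3 CPM). In BLA APP/Tau trained library 2, this was the case for Grin1 at 513.3 CPM (above the next library, 425.1 CPM), Grm2 at 69.41 CPM (above the next library, 26.09 CPM) and Grm7 at 89.61 CPM (above the next library, 66.91 CPM). In BLA control naive library 2, this was the case for Grin1 at 536.3 CPM (above the next library, 492.4 CPM). In BLA control trained library 5, this was the case for Grin2b at 530.4 CPM (above the next library, 382 CPM), Nlgn1 at 120.7 CPM (above the next library, 99.75 CPM) and Lrrtm1 at 76.02 CPM (above the next library, 49.48 CPM). In BLA control naive library 1, this was the case for Grm4 at 22.74 CPM (below the next library, 36.32 CPM), Grm5 at 183.9 CPM (below the next library, 246.6 CPM), Dlg2 at 257.6 CPM (below the next library, 331.1 CPM) and Homer3 at 25.2 CPM (above the next library, 14.77 CPM). In BLA control trained library 1, this was the case for Dlg1 at 191.1 CPM (above the next library, 178.5 CPM). In BLA APP/Tau naive library 2, this was the case for Dlg2 at 350.6 CPM (above the next library, 323.8 CPM) and Shank3 at 227.3 CPM (above the next library, 167.1 CPM). Hippocampal control naive 1 and control trained 1, which hold 6 of these values, are the 2 libraries rich in 18S ribosomal RNA. Hippocampal APP/Tau naive 5 is the library with the highest microglial marker median. All of these libraries entered the edgeR fits reported above.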

How the results depend on the processing

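The hippocampal genotype effect kept its sign, with a member median between -0.23 and -0.09 over the settings tried, but the number of called members did not hold. Against 12 in the edgeR fit it was 24 with DESeq2, 18 with limma-voom, 20 with a filter at a mean of 1 CPM, 0 with the pan-neuronal covariate, 5 without the 2 libraries rich in 18S ribosomal RNA, and between 3 and 26 when 1 library was left out. The covariate fit has 1 more term, and the other causes were not tested. Over all genes, where edgeR called 2854, it was 4335 with DESeq2, 330 with the covariate and 1803 without the 18S-rich libraries. It was 2693 with limma-voom, 3190 with the 1 CPM filter and between 1171 and 4465 when 1 library was left out. DESeq2 also called 2 members in naive and 3 in trained hippocampi and 7 in the BLA, averaged, where edgeR called 0. Over all genes DESeq2 called 744, 1590 and 1191 in these comparisons, beside 52, 721 and 273 with edgeR. Leaving out 1 library gave 0 to 9 called members in trained hippocampi (9 without APP/Tau trained 2, 8 without APP/Tau naive 5, 3 without APP/Tau trained 4), 0 to 16 in the BLA averaged over training and 0 to 8 in the trained BLA. Over all genes the ranges in these 3 comparisons were 62 to 2234, 45 to 2176 and 8 to 677 called. In the BLA, DESeq2 called 1191 genes in all, limma-voom 64, the striatal covariate fit 33 and the pan-neuronal one 12, against 273. Training effects, interactions and the difference of the genotype effect between tissues had no called member under any setting run. Over all genes DESeq2 called 0 to 14 in the training effects and interactions and 41 for that difference, beside 0 and 7 with edgeR. The region difference kept 38 to 40 called members, and its small median (0.06) turned to -0.0047 with limma-voom and to -0.02 without BLA APP/Tau trained 2. Over all genes it called 17230 in the main edgeR fit, 12405 with the 1 CPM filter and 18614 with no filter.

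Libraries of both genotypes and both training states share the numbers in their titles. Deviations from the group means correlated by 0.09 on average between same-numbered hippocampal libraries (-0.25 to 0.51), beside -0.02 between other libraries. In the BLA the averages were -0.05 (-0.68 to 0.69) and 0.01. The main fits did not take the numbers as pairs. With the title number as a replicate block, 29 members were called in the hippocampus averaged over training (4145 genes in all). In trained hippocampi 3 were called (1456 genes in all), and in the BLA 0 (44 genes in all). For BLA and hippocampal libraries of the same library number the correlation averaged 0.27 over 19 pairs, the lowest was -0.08, and 12 of 19 BLA libraries correlated best with their own number. Libraries that share a library number also share genotype, training and title number, though no label says that they come from the same mouse. The main fits over both tissues treated them as independent. With the library number as block, 39 members and 17637 genes in all were called between the regions, with a member median of -0.0016. In that fit 30 genes in all, no member among them, differed in genotype effect between the tissues.

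The 95% interval of the averaged genotype effect reached a median of 0.16 log2 units to either side of the estimate in the BLA and 0.15 in the hippocampus. With 4 to 6 libraries a group, intervals of training effects span a median of 0.20 to 0.23 log2 units on either side.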
